A study of Mus musculus with 11 samples.

Results

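The genes described are 40 members of the machinery that builds the mitotic spindle and splits the cell. They were taken by name from a fixed list, itself chosen with earlier results of these data known. All were matched by symbol, to 40 of the 49585 entries of the count table. They comprise 12 kinesin motors, 10 spindle and microtubule-associated proteins, 5 mitotic kinases or their activators, 5 cytokinesis proteins, 6 proteins of the anaphase machinery and its ubiquitin ligase, and 2 proteins of mitotic chromosomes. They were read in haematopoietic stem cells from C57BL/6 mice, sorted from bone marrow as lineage-negative, c-Kit+, Sca-1+, CD48-, CD150+ cells and divided by surface CD41, an integrin chain known from megakaryocytes and platelets. Control mice had received rabbit serum, and the other mice were studied 24 h after platelet depletion. No source used here states the age of the mice or the agent used for depletion. Each library held RNA of 1000 cells from 3 pooled mice, with 3 libraries of CD41- and 2 of CD41+ cells from control mice, and 3 libraries of each from depleted mice (called depleted CD41- and depleted CD41+ below).

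A cell that enters mitosis replaces its microtubule array with a bipolar spindle. Kinesins walk along or shorten the microtubules, bundling proteins hold them together, and kinases such as Aurora A and Polo-like kinase time each step. The anaphase-promoting complex then marks inhibitors for destruction so that sister chromatids part, and the centralspindlin complex at the spindle midzone directs the contractile ring. Most of these genes are transcribed mainly in G2 and mitosis, when the MuvB complex with B-MYB and FOXM1 acts at cell cycle homology regions in their promoters, often near CCAAT boxes bound by NF-Y. Stem cells of adult marrow are mostly quiescent, and their transcripts of this machinery are low while they rest.

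Because the promoters of these genes share short elements, the start regions of 6 members are shown, those with the smallest p among the members that differed between CD41+ and CD41- cells of control mice and that hold a cell cycle homology region. Sequences are RefSeq promoters on build GRCm38.p6, from 250 bases before to 50 bases after the start, written 5′ to 3′ on the strand of the gene. Capitals mark cell cycle homology regions (TTTGAA or TTCGAA) and CCAAT boxes on either strand, so reverse matches, TTCAAA for the homology region and ATTGG for the CCAAT box, are in capitals as well.
Ube2c, chr2:164769679-164769978, plus strand: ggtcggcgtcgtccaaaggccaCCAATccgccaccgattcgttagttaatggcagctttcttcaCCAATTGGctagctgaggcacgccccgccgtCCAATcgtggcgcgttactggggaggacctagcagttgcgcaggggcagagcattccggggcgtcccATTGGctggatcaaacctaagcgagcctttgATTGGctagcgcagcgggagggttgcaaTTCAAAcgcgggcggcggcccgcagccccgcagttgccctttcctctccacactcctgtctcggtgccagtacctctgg
Kif22, chr7:127042371-127042670, minus strand: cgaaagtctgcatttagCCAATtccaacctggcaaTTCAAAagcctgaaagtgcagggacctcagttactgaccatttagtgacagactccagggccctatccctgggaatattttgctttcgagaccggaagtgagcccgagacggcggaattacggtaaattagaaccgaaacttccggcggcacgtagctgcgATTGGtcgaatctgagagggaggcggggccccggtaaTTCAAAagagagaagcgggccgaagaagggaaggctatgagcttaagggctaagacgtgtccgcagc
Racgap1, chr15:99651607-99651906, minus strand: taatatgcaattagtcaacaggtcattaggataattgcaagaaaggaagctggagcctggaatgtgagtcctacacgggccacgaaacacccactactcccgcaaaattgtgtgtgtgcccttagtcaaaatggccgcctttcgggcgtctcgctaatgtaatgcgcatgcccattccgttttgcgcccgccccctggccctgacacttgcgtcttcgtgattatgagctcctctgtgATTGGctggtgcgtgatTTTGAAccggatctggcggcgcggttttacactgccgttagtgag
Plk1, chr7:122159185-122159484, plus strand: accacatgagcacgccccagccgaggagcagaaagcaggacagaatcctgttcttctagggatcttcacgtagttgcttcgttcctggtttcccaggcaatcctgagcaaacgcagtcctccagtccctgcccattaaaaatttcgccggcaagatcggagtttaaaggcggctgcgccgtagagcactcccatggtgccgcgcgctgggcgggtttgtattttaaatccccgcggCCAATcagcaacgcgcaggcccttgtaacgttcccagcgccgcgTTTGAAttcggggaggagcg
Prc1, chr7:80294201-80294500, plus strand: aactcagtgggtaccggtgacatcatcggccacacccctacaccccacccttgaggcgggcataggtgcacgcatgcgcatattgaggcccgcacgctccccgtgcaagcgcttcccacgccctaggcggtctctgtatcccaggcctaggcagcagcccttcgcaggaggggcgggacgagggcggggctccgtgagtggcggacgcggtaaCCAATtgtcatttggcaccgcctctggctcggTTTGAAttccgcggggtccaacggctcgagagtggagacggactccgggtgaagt
Cdca3, chr6:124829926-124830225, plus strand: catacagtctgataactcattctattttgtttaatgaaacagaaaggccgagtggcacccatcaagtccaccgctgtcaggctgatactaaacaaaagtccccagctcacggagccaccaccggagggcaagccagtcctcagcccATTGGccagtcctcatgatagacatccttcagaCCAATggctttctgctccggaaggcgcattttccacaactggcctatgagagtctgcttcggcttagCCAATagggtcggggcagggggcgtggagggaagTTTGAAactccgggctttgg

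In these windows the first base of the cell cycle homology region lay at -29 in Ube2c, at -17 and -215 in Kif22, at 6 in Racgap1, at 31 in Plk1, at -5 in Prc1 and at 31 in Cdca3, where 1 is the first transcribed base. Ube2c, the ubiquitin-conjugating enzyme of the anaphase-promoting complex, held 6 CCAAT boxes, 2 of which overlap. Cdca3, which promotes mitotic entry, held 3, Kif22 held 2, and Racgap1, Plk1 and Prc1 held 1 each. Of the 40 genes, 36 had a promoter in the table, and 29 of these (80.6%) held a cell cycle homology region, against 19.2% of all 32851 promoters. A CCAAT box was present in 25 of the 36 (69.4%), against 37.4% of all promoters. Both elements stood together in 23 (63.9%), against 7.52%. Among 21 kinesin genes of transport and other non-mitotic roles with a promoter, 2 (9.52%) held the homology region. A match is a run of letters and no evidence of binding. No homology region lay in the windows of Kif18a, Nusap1, Tacc3, Nek2, Troap, Cit and Pttg1.

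Libraries held between 0.974 M (depleted CD41+ replicate 1) and 9.95 M counts (depleted CD41- replicate 1, in M of 1000000 counts), with a median of 3.88 M, so 3 counts corresponded to between 0.301 and 3.08 CPM, counts per 1000000 counts of a library. Such floors cover counting error only, since amplified reads without molecular identifiers are not independent molecules. Itga2b, which encodes CD41, stood between 354 and 425 CPM in control CD41+ and between 46.1 and 98.5 CPM in control CD41- libraries, and between 170.0 and 246 against between 37.5 and 44.7 CPM in depleted mice. Cd48 stood between 12.9 and 40.3 CPM in control CD41- libraries and at 25.4 and 54.4 CPM in control CD41+ libraries. In depleted mice it stood between 28.7 and 55.8 CPM in CD41- and between 37.8 and 105.7 CPM in CD41+ libraries, highest in CD41+ replicate 1. The summed level of 8 stem cell markers was between 2615 and 3346 CPM in control CD41-, 1631 and 2210 in control CD41+, 1625 and 2188 in depleted CD41- and 856 and 1619 CPM in depleted CD41+ libraries. The 12 neutrophil markers, none at 0 in all libraries, summed to between 8657 and 15007 CPM in control CD41-, 24203 and 83961 in control CD41+, 4408 and 36919 in depleted CD41- and 15058 and 52530 CPM in depleted CD41+ libraries. Levels below are CPM scaled by TMM factors, given by library in the order of the replicates. Fold changes are log2 ± SE from the edgeR quasi-likelihood fit, with p adjusted by Benjamini-Hochberg over 13448 genes and called at 0.05. The p-values measure the spread between these pooled libraries. In such bulk RNA, more cells of a dividing type and more RNA of a gene per cell cannot be told apart.

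All 40 genes passed the filter on low counts. Their summed level was lowest in control CD41- cells, at 1411, 1658 and 1725 CPM ordered by size, and higher in both control CD41+ libraries, at 3015 and 3404 CPM. After platelet depletion it stood between 4658 and 5168 CPM in CD41- and between 3965 and 5841 CPM in CD41+ cells. The 4 groups thus formed 3 steps, with control CD41- lowest, control CD41+ above it, and the depleted groups highest and overlapping each other. Gene by gene, control CD41- cells had the lowest group mean for 35 genes, and control CD41+ cells for the other 5. The highest mean fell to CD41- cells after depletion for 19 genes and to CD41+ cells after depletion for 20. For 1 gene, Kif18b, it fell to control CD41+ cells, at 43.3 CPM. Its means were close to that in depleted CD41- (42.7, SD 14.5) and depleted CD41+ cells (40.4, SD 25.1).

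**Figure D1:**
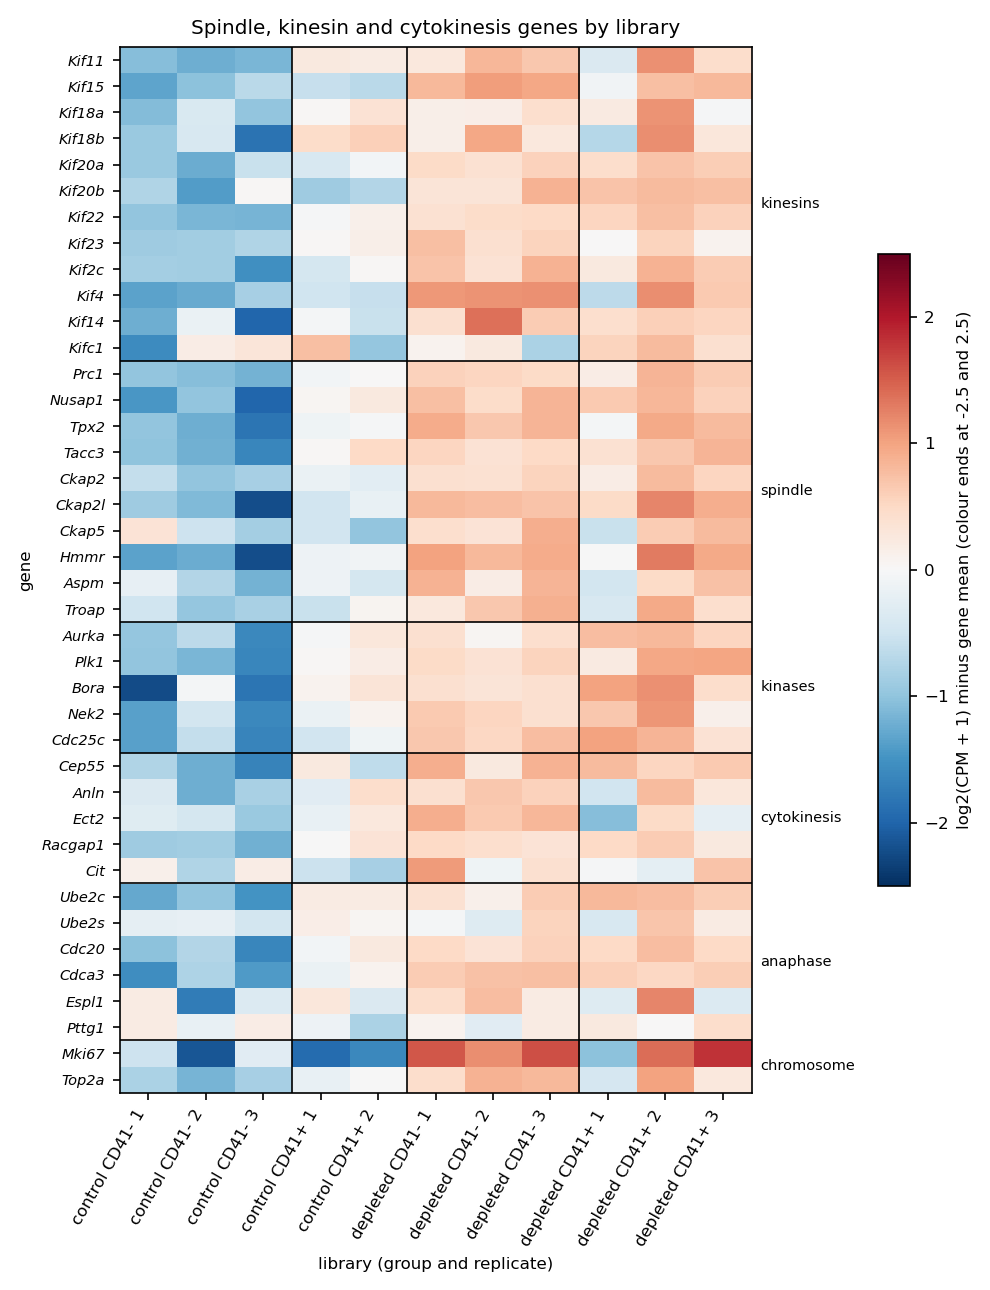
Level of each of the 40 genes in each of the 11 libraries, as log2(CPM + 1) minus the mean of the gene over all libraries, with genes ordered by role and libraries by group. Control CD41- libraries are blue for nearly every gene, control CD41+ libraries lie near the mean, and the 6 depleted libraries are mostly red. Pttg1, Kifc1, Cit, Mki67, Kif20b and Ckap5 are among the genes that depart from that order.

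How CD41+ stem cells differ from CD41- stem cells at rest was asked in control mice. Genes of all mitotic roles except the 2 chromosome proteins were represented among those higher in CD41+ cells. Of the 40 genes, 14 were called higher (1.58% of all genes tested were) and 0 were called lower (1.04% of all genes). In the lower direction, 0 had an unadjusted p under 0.05 (9.52% of all genes had). The 14 were Kif11, Kif22, Kif23, Prc1, Nusap1, Tpx2, Tacc3, Hmmr, Aurka, Plk1, Racgap1, Ube2c, Cdc20 and Cdca3. The median log2 fold change over the 40 was 0.93, against -0.03 over all genes tested. Both CD41+ libraries lay above all 3 CD41- libraries for 30 of the 40 genes, against 17.4% of all genes.

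The control CD41+ group held 2 libraries, and the number of calls moved with single libraries: 2 of the 40 genes were called higher when control CD41+ replicate 2 was left out, 9 when its partner replicate 1 was, and 8 when control CD41- replicate 3 was. Kif22 and Ube2c were called whichever of the 11 libraries was left out. A CD41+ library left alone was assumed to vary like the other groups. Calls over all genes, in either direction, fell as well when either control CD41+ library was left out, and most for replicate 2. Without control CD41- replicate 3 they fell from 352 with all libraries to 130. With libraries of consecutive title numbers taken as pairs (a replicate block, for which no label gives a basis), 0 of the 40 and 9 of all genes were called. The median over the 40 was 0.88 there, and Ube2c and Kif22 differed by 1.35 and 1.12 (adjusted p = 0.288 and 0.334). Control CD41+ replicate 2 was also the library with the highest neutrophil sum, 83961 CPM, and the neutrophil lists of both CD41+ libraries lay above those of all CD41- libraries. So did the sums of 11 erythroblast markers (6418 and 5215 CPM, against between 2938 and 4812 CPM), 9 macrophage markers (2224 and 7119, against between 1423 and 1625), 9 endothelial and stromal markers (321 and 173, against between 79.2 and 114) and 7 T and NK cell markers (182 and 228, against between 112 and 117). None of these markers was at 0 in all libraries. The stem cell sum was lower in both CD41+ libraries, and the B cell and megakaryocyte sums overlapped. The part of RNA of other cell types in the difference was not tested. Transcript length moved with it as well: the 20 genes with more than the median exon length of 5030 bases had a median log2 fold change of 0.71, and the 20 shorter ones 1.17. The part of length in the difference was not tested.

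What 24 h of platelet depletion changed in CD41- stem cells was asked with the same 3 control CD41- libraries, so the values of this comparison and of the previous one share their reference. Depletion raised 27 of the 40 genes (2.3% of all genes tested were called higher) and lowered 0 (0.892% of all genes). In the lower direction, 0 had an unadjusted p under 0.05 (1037 of 13448 genes had). The median log2 fold change over the 40 was 1.56, against -0.03 over all genes. All 3 depleted libraries lay above all 3 control libraries for 35 of the 40 genes, against 12.9% of all genes. Of the 27, 23 were called whichever of the 11 libraries was left out, while Anln, Ect2, Nek2 and Troap were not. The 13 genes not called were Kif14, Kif18a, Kif18b, Kif20b, Kifc1, Ckap5, Aspm, Bora, Cit, Ube2s, Espl1, Pttg1 and Mki67. The neutrophil sum of control and depleted CD41- libraries overlapped, and depleted CD41- replicate 2 had the lowest of all libraries, 4408 CPM. The stem cell marker sum was lower in all 3 depleted than in all 3 control CD41- libraries. So were the sum of 12 megakaryocyte markers, of which Gp6 was at 0 in all libraries, with 605, 824 and 505 CPM in depleted and 1278, 915 and 1431 CPM in control CD41- libraries, and that of the T and NK cell markers, with at most 100.2 CPM after depletion. The part of these shifts in the difference was not tested.

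**Figure D2:**
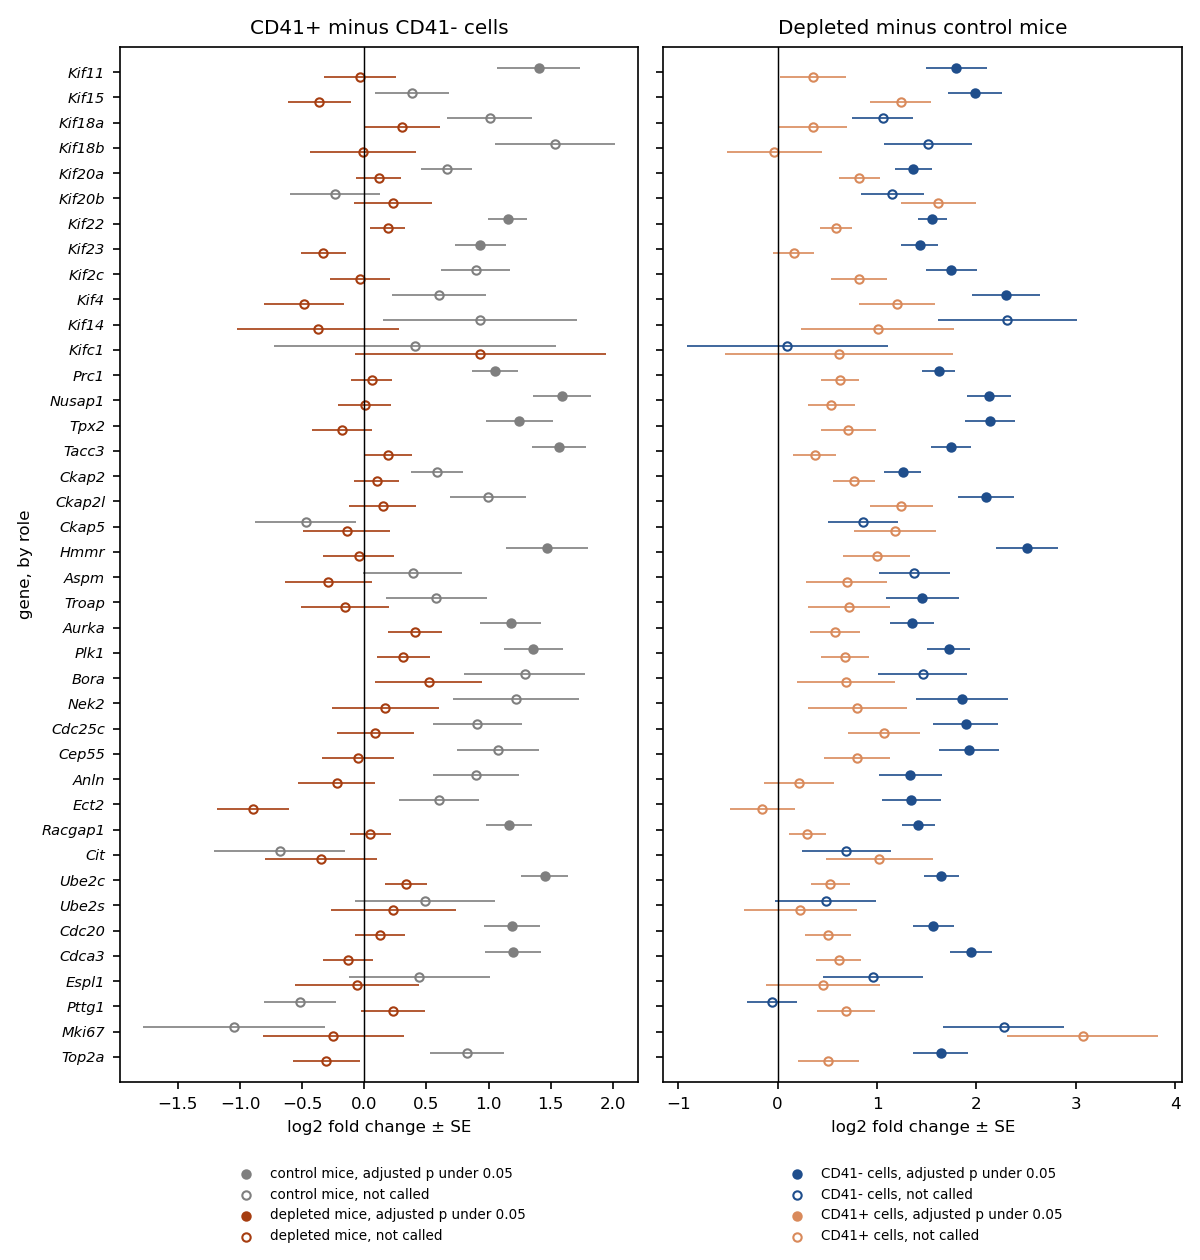
Log2 fold change ± SE of each gene, for CD41+ minus CD41- cells in control and in depleted mice (left) and for depleted minus control mice in CD41- and in CD41+ cells (right), with filled points for an adjusted p under 0.05. In control mice 14 points are filled and in CD41- cells 27, all to the right of 0, whereas no point is filled for depleted mice or for CD41+ cells.

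Kinesin motors move along microtubules or take them apart. Their summed level rose from between 330.3 and 370.4 CPM in control CD41- to between 599.6 and 679 CPM in control CD41+ libraries, and stood between 969 and 1056 CPM in depleted CD41- libraries. In control mice 3 of the 12 were called higher in CD41+ cells (median 0.91), and depletion raised 7 of the 12 in CD41- cells (median 1.53).
Kif22 (GRCm38 chromosome 7, 127027729 to 127042471, minus strand), a motor that binds chromosome arms and pushes them toward the spindle equator, had 69.9, 62.8 and 62.0 CPM in CD41- and 136 and 152 CPM in CD41+ libraries of control mice. It had 183, 192 and 197 CPM in depleted CD41- and 205, 237 and 208 CPM in depleted CD41+ libraries. The 4 groups did not overlap and rose in that order. Kif22 was higher in CD41+ cells of control mice by 1.15 ± 0.16 (adjusted p = 0.00359), and depletion raised it in CD41- cells by 1.55 ± 0.15 (adjusted p = 0.000165), the smallest p of the 40 genes.
Kif11 (chromosome 19, 37376403 to 37421859, plus strand), which slides antiparallel microtubules apart to separate the spindle poles, had 20.6, 18.6 and 19.7 CPM in CD41- and 52.9 and 51.1 CPM in CD41+ libraries of control mice. In depleted mice it had 53.8, 80.0 and 71.4 CPM in CD41- and 34.5, 99.2 and 60.3 CPM in CD41+ libraries. Control CD41- libraries were below all others, and the depleted CD41+ libraries spread from below to above those of the remaining groups. It was higher in control CD41+ cells by 1.40 ± 0.33 (adjusted p = 0.0419), and higher after depletion in CD41- cells by 1.80 ± 0.31 (adjusted p = 0.00543).
Kif23 (chromosome 9, 61915905 to 61946774, minus strand) is the motor of centralspindlin. Its levels were 47.3, 47.9 and 52.5 CPM in control CD41-, 90.0 and 98.3 in control CD41+, 149, 117 and 131 in depleted CD41- and 89.0, 129.9 and 94.1 CPM in depleted CD41+ libraries. The depleted CD41+ libraries thus overlapped those of control CD41+ cells. The CD41 difference in control mice was 0.93 ± 0.20 (adjusted p = 0.0267), and the depletion response of CD41- cells was 1.43 ± 0.18 (adjusted p = 0.0011).

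Among the other kinesins raised by depletion in CD41- cells, Kif4, a chromosome-bound motor that also limits midzone microtubules, moved furthest, by 2.30 ± 0.34 (adjusted p = 0.00243), from 13.5, 14.4 and 19.7 CPM to 76.4, 78.7 and 79.5 CPM. Kif15, which can stand in for Kif11, rose by 1.98 ± 0.27, Kif2c, which takes microtubule ends apart at centromeres, by 1.75 ± 0.25, and Kif20a, a midzone motor, by 1.37 ± 0.18. These 4 genes were not called in the CD41 comparison of control mice, where their values were 0.60, 0.38, 0.90 and 0.66 in the same order. Kif20b, a motor of the midzone and midbody, had 20.1, 12.6 and 35.3 CPM in CD41- and 18.2 and 20.4 CPM in CD41+ libraries of control mice, which overlapped, with a difference of -0.23 ± 0.36 (adjusted p = 0.773) that was 0.24 without control CD41- replicate 3. Kif14 and Kifc1 stayed low everywhere, with at most 11.7 and 4.12 CPM, and Kifc1 was at 0 in control CD41- replicate 1. Of windows of 50 bases along the exons of Kifc1, 39.7% also occur in Kifc5b or another gene, so its counts are uncertain. Windows shared with other genes made up 25.2% for Kif20a (Cdc23) and 14.5% for Kif4 (Pdzd11 and a pseudogene).

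**Figure D3:**
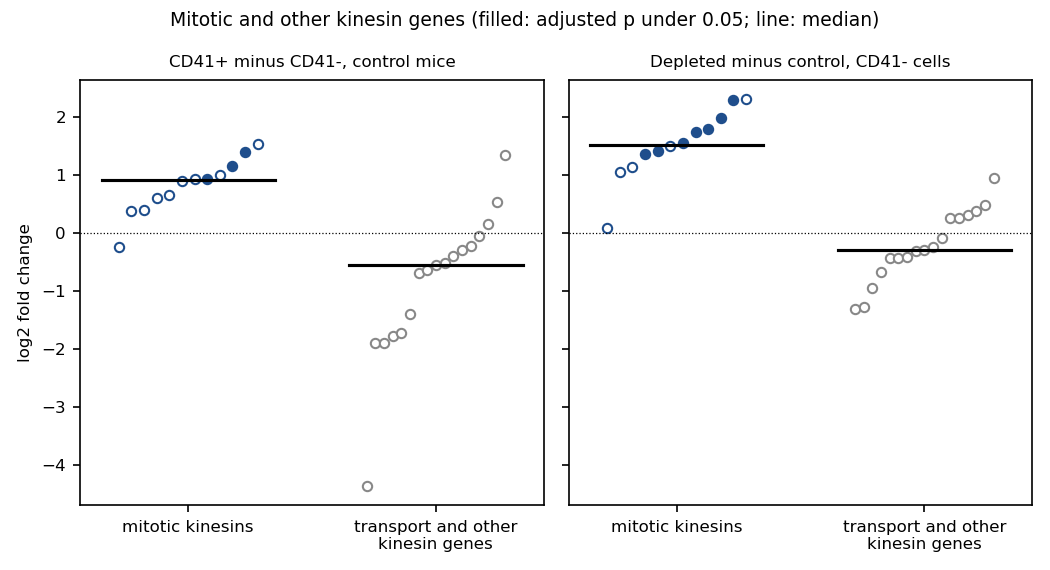
Log2 fold changes of the 12 mitotic kinesins and of 17 tested kinesin genes with transport and other roles, for CD41+ minus CD41- cells in control mice (left) and depleted minus control mice in CD41- cells (right), with a line at each median. The mitotic kinesins have medians of 0.91 and 1.53, the other kinesin genes -0.54 and -0.29, and no gene of the second set is filled.

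Kinesin motors and adaptors that carry cargo or serve cilia were set beside them. Of 29 such genes, 17 passed the filter. In control mice 0 of the 17 were called in either direction, with a median of -0.54. At an unadjusted p under 0.05, 0 were higher (9.39% of all genes) and 4 lower (9.52% of all genes). Depletion in CD41- cells moved 0 of the 17, with a median of -0.29. There, 0 had an unadjusted p under 0.05 in either direction, where 1235 of 13448 genes were higher and 1037 lower. Kif5b, the ubiquitous heavy chain of conventional kinesin, differed by -0.54 ± 0.24 (adjusted p = 0.239) in control mice and by -0.29 ± 0.21 (adjusted p = 0.531) after depletion.

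Spindle and microtubule-associated proteins bundle, anchor and extend the microtubules of the spindle. Of these 10 genes, 5 were called higher in CD41+ cells of control mice (median 1.02), and depletion raised 8 in CD41- cells (median 1.68).
Nusap1 (chromosome 2, 119618298 to 119651244, plus strand), which links microtubules near chromosomes, had 68.8, 95.5 and 47.7 CPM in CD41- and 198 and 227 CPM in CD41+ libraries of control mice. After depletion it had 322, 262 and 342 CPM in CD41- and 301, 339 and 286 CPM in CD41+ libraries. The control groups did not overlap each other or the depleted libraries, and the depleted groups overlapped. It was higher in control CD41+ cells by 1.59 ± 0.23 (adjusted p = 0.00383), the largest difference of the 40 genes there, and rose by 2.13 ± 0.22 (adjusted p = 0.000317) in CD41- cells after depletion.
Tacc3 (chromosome 5, 33658128 to 33678995, plus strand), which with Ckap5 and clathrin crosslinks the fibres that reach kinetochores, had 60.8, 52.9 and 38.9 CPM in control CD41-, 125 and 175 in control CD41+, 179, 157 and 174 in depleted CD41- and 161, 196 and 223 CPM in depleted CD41+ libraries. Control CD41- libraries were below all others, and the other 3 groups overlapped. The CD41 difference in control mice was 1.56 ± 0.22 (adjusted p = 0.00367), and the depletion response of CD41- cells was 1.74 ± 0.20 (adjusted p = 0.000551).
Prc1 (chromosome 7, 80294450 to 80316259, plus strand) bundles the antiparallel microtubules of the midzone. It had 103, 97.6 and 89.5 CPM in CD41- and 194 and 206 CPM in CD41+ libraries of control mice, against 307, 297 and 286 CPM in depleted CD41- and 232, 369 and 319.6 CPM in depleted CD41+ libraries. Each control group was below all depleted libraries, and the control CD41- group was lowest. Prc1 was higher in control CD41+ cells by 1.05 ± 0.18 (adjusted p = 0.0101), and depletion raised it in CD41- cells by 1.62 ± 0.17 (adjusted p = 0.000317).

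Tpx2, which activates Aurora A on spindle microtubules, and Hmmr, which anchors spindle poles, were the other 2 called in control mice, by 1.25 ± 0.27 (adjusted p = 0.0274) and 1.47 ± 0.33 (adjusted p = 0.0336). Hmmr had the largest depletion response of the 40 genes in CD41- cells, 2.51 ± 0.31 (adjusted p = 0.000801), from 25.0, 27.0 and 13.1 CPM to 132, 114 and 125 CPM. Ckap2, Ckap2l and Troap were raised by depletion in CD41- cells, by 1.26 ± 0.19, 2.10 ± 0.28 and 1.46 ± 0.36, with control CD41 differences of 0.59, 1.00 and 0.58 that were not called. Ckap5, the polymerase that partners Tacc3, had 61.1, 33.2 and 26.3 CPM in CD41- and 34.2 and 23.7 CPM in CD41+ libraries of control mice. These overlapped, and the difference was -0.47 ± 0.41 (adjusted p = 0.564). Aspm, a protein of spindle poles, changed by 1.37 ± 0.36 after depletion in CD41- cells with an adjusted p of 0.0527.

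**Figure D4:**
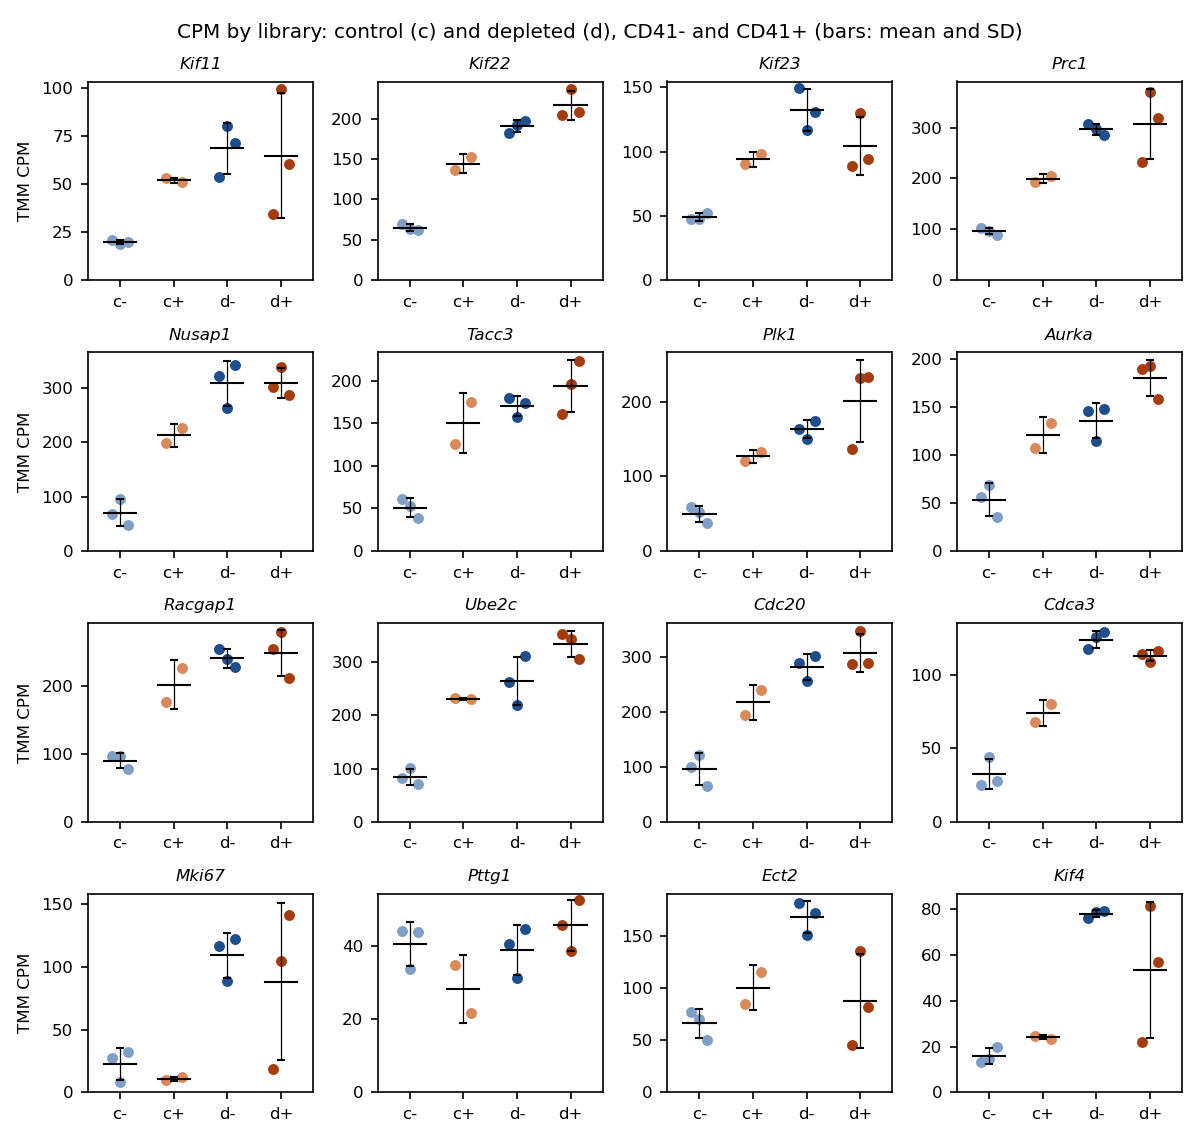
CPM of 16 genes in each library, with a horizontal line at the mean and a bar for the SD of each group (c- and c+ for control CD41- and CD41+, d- and d+ for depleted CD41- and CD41+). For Kif22 the 4 groups rise without overlap, for Nusap1 and Prc1 the control groups lie below the depleted ones, and for Mki67, Pttg1 and Ect2 the order differs.

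All 5 mitotic kinases and activators had positive CD41 differences in control mice, from 0.91 to 1.36, of which 2 were called. Depletion raised 4 of the 5 in CD41- cells (median 1.72).
Plk1 (chromosome 7, 122159439 to 122169873, plus strand), Polo-like kinase 1, had 58.6, 52.4 and 37.5 CPM in CD41- and 120.2 and 133 CPM in CD41+ libraries of control mice. In depleted mice it had 163, 150.4 and 175 CPM in CD41- and 137, 231 and 233 CPM in CD41+ libraries. Both control groups were below every depleted library and apart from each other. Plk1 was higher in control CD41+ cells by 1.36 ± 0.24 (adjusted p = 0.0101), and depletion raised it in CD41- cells by 1.72 ± 0.22 (adjusted p = 0.00107).
Aurka (chromosome 2, 172356190 to 172370535, minus strand), Aurora kinase A of the centrosomes, had 55.8, 69.1 and 35 CPM in control CD41-, 107 and 134 in control CD41+, 145, 114 and 148 in depleted CD41- and 189, 193 and 159 CPM in depleted CD41+ libraries. Depleted CD41+ libraries were above all others, and control CD41+ overlapped depleted CD41-. The difference in control mice was 1.18 ± 0.24 (adjusted p = 0.0232), and that after depletion in CD41- cells 1.35 ± 0.22 (adjusted p = 0.00477).
Cdc25c, the phosphatase that switches on Cdk1, and Nek2, which loosens the link between centrosomes, were raised by depletion in CD41- cells by 1.89 ± 0.33 (adjusted p = 0.0057) and 1.85 ± 0.46 (adjusted p = 0.0414). Bora, which helps Aurora A to activate Plk1, varied most within its group, with 8.80, 43.2 and 11.9 CPM in control CD41- libraries. It was not called in either comparison (adjusted p = 0.173 and 0.108).

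Of the 5 cytokinesis genes, 1 was called higher in CD41+ cells of control mice (median 0.90), and depletion raised 4 in CD41- cells (median 1.35).
Racgap1 (chromosome 15, 99620496 to 99651656, minus strand), the partner of Kif23 in centralspindlin, had 96.0, 97.1 and 76.9 CPM in CD41- and 177 and 227 CPM in CD41+ libraries of control mice. In depleted mice it had 254, 239.6 and 227 CPM in CD41- and 255, 278 and 212 CPM in CD41+ libraries. Control CD41- libraries stood below all others. Racgap1 was higher in control CD41+ cells by 1.16 ± 0.18 (adjusted p = 0.00519), and depletion raised it in CD41- cells by 1.42 ± 0.17 (adjusted p = 0.000614).
Ect2, which activates RhoA at the midzone once bound to Racgap1, had 77.3, 70.7 and 50.3 CPM in CD41- and 85.0 and 116 CPM in CD41+ libraries of control mice. After depletion it had 181, 151 and 171 CPM in CD41- and 45.6, 135 and 81.9 CPM in CD41+ libraries. Its CD41+ libraries were above the CD41- libraries in control mice and below them in depleted mice. The depletion response of CD41- cells was 1.35 ± 0.29 (adjusted p = 0.0232).
Cep55, needed to cut the last bridge between daughter cells, and Anln, a scaffold of the contractile ring, were raised in CD41- cells by 1.93 ± 0.30 (adjusted p = 0.00323) and 1.34 ± 0.32 (adjusted p = 0.0339). Cit, citron kinase of the midbody, stayed at or below 20.0 CPM, with 9.90, 4.97 and 10.5 CPM in CD41- and 5.88 and 4.64 CPM in CD41+ libraries of control mice, which overlapped. Its difference was -0.68 ± 0.53 (adjusted p = 0.513).

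The 6 anaphase genes divided evenly. Ube2c, Cdc20 and Cdca3 were called in both comparisons, and Ube2s, Espl1 and Pttg1 in neither.
Ube2c (chromosome 2, 164769898 to 164778822, plus strand) had 81.7, 101 and 70.8 CPM in control CD41-, 232 and 230.2 in control CD41+, 263, 220.1 and 311 in depleted CD41- and 354, 343 and 306 CPM in depleted CD41+ libraries. Control CD41- libraries were far below the rest, and depleted CD41- libraries overlapped those of both CD41+ groups. The CD41 difference in control mice was 1.45 ± 0.19 (adjusted p = 0.00304), the smallest p of the 40 genes there, and the depletion response of CD41- cells was 1.65 ± 0.18 (adjusted p = 0.000317).
Cdc20 (chromosome 4, 118432901 to 118437352, minus strand), which brings substrates to the anaphase-promoting complex, had 99.6, 122 and 64.5 CPM in CD41- and 194 and 239.7 CPM in CD41+ libraries of control mice, against 288, 255 and 302 CPM in depleted CD41- and 287, 347 and 288 CPM in depleted CD41+ libraries. Both control groups lay below all depleted libraries. It was higher in control CD41+ cells by 1.19 ± 0.23 (adjusted p = 0.0147), and depletion raised it in CD41- cells by 1.57 ± 0.21 (adjusted p = 0.00134).
Cdca3 (chromosome 6, 124829547 to 124833701, plus strand) had 25.0, 44.0 and 27.7 CPM in control CD41-, 67.9 and 80.2 in control CD41+, 118, 126 and 129 in depleted CD41- and 115, 109 and 116 CPM in depleted CD41+ libraries. No groups overlapped. The CD41 difference in control mice was 1.20 ± 0.23 (adjusted p = 0.0147), and the depletion response of CD41- cells was 1.94 ± 0.21 (adjusted p = 0.000327).
Pttg1, securin, the inhibitor that holds separase until anaphase, went its own way, with 44.0, 33.5 and 43.8 CPM in control CD41-, 34.7 and 21.7 in control CD41+, 40.5, 31.2 and 44.5 in depleted CD41- and 45.6, 38.6 and 52.4 CPM in depleted CD41+ libraries. Its CD41 difference in control mice was -0.52 ± 0.29 (adjusted p = 0.35), and its depletion response in CD41- cells -0.06 ± 0.25 (adjusted p = 0.939). Espl1, separase, changed by 0.96 ± 0.51 (adjusted p = 0.366) after depletion in CD41- cells, and Ube2s, which extends ubiquitin chains, stayed at or below 8.23 CPM.

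Mki67, the surface coat of mitotic chromosomes and the usual marker of proliferation, did not follow the order of most of the other genes. It had 27.2, 8.11 and 32.1 CPM in CD41- and 9.62 and 12.1 CPM in CD41+ libraries of control mice, which overlapped. In depleted mice it had 117, 88.8 and 122 CPM in CD41- libraries and 18.9, 104 and 141 CPM in CD41+ libraries, and all but depleted CD41+ replicate 1 were far above every control library. The CD41 difference in control mice was -1.05 ± 0.73 (adjusted p = 0.473). The depletion response was 2.27 ± 0.61 (adjusted p = 0.0817) in CD41- and 3.07 ± 0.76 (adjusted p = 0.17) in CD41+ cells, the largest of the 40 genes in CD41+ cells, and neither was called. Without depleted CD41+ replicate 1, the shallowest library, the response of CD41+ cells was 3.49 (adjusted p = 0.0231). Top2a, which untangles sister DNA, had 177, 138 and 174 CPM in CD41- and 272 and 306 CPM in CD41+ libraries of control mice, with a difference of 0.82 ± 0.30 (adjusted p = 0.152). Depletion raised it in CD41- cells by 1.64 ± 0.28 (adjusted p = 0.00537), to 421, 565 and 543 CPM.

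**Figure D5:**
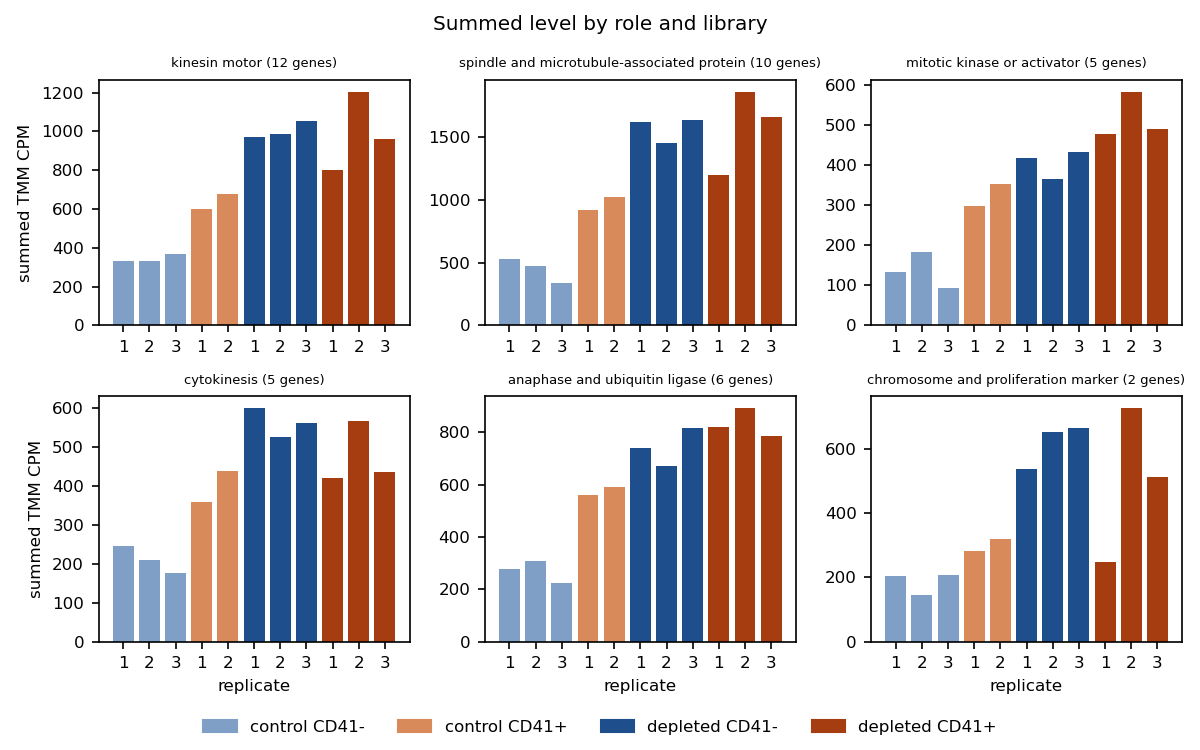
Summed CPM of the genes of each role in each library, with bars numbered by replicate and coloured by group. In all 6 roles the control CD41- bars are lowest. The control CD41+ bars follow and the depleted bars are higher, except for cytokinesis and chromosome proteins. There, depleted CD41+ bars reach below a control CD41+ bar. Depleted CD41+ replicate 1 is the lowest of the depleted bars for kinesins, spindle proteins, cytokinesis and chromosome proteins.

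Whether the CD41 difference was present after platelet depletion was asked within depleted mice. There, 0 of the 40 genes were called higher (0.0669% of all genes were) and 0 lower (0.126% of all genes). At an unadjusted p under 0.05, 0 were higher (4.16% of all genes) and 1, Ect2, was lower (5.01% of all genes), by 0.90 on the log2 scale (-0.90 ± 0.29, adjusted p = 0.307). Both DESeq2 and limma voom called 0 of the 40 in either direction, and 204 and 123 of all genes. The median log2 fold change was -0.00 (0.31 with the replicate block, under which 12 of the 40 values changed sign), and the range was from -0.90 (Ect2) to 0.93 (Kifc1). All 3 CD41+ libraries lay above all 3 CD41- libraries for 4 genes (8.35% of all genes), Kif22, Kifc1, Aurka and Bora, and below them for 2 (9.32% of all genes), Ect2 and Cdca3. For these 2 both control CD41+ libraries lay above all control CD41- libraries, and 0.498% of all genes had such opposite directions without overlap. Kif22 differed by 0.19 ± 0.14 (adjusted p = 0.763) and Aurka by 0.41 ± 0.22 (adjusted p = 0.62). Depleted CD41+ replicate 1 stood apart by transcript length: its deviation from the mean of all libraries was lower for the 20 longer than for the 20 shorter genes, by 0.54 on the log2 scale (-0.54), where the other 10 libraries ranged from -0.22 to 0.42. The part of length in the values of this library was not tested. Within depleted mice the stem cell marker sum was lower in all 3 CD41+ than in all 3 CD41- libraries. The T and NK cell sum was higher, between 122 and 137 CPM, against between 71.2 and 100.2 CPM. The other cell type sums overlapped. The part of these shifts in the CD41 values was not tested.

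Averaged over control and depleted mice, the 40 genes had a median of 0.51. In the lower direction, 0 had an unadjusted p under 0.05 (1625 of 13448 genes had). Called lower in CD41+ cells were 0 (2.65% of all genes), and called higher were 9 (2.73% of all genes). They were Ube2c, Kif22, Tacc3, Plk1, Nusap1, Racgap1, Aurka, Prc1 and Cdc20. The 6 with the smallest p were Ube2c at 0.89 ± 0.13 (adjusted p = 0.00227), Kif22 at 0.67 ± 0.11 (adjusted p = 0.00387), Tacc3 at 0.88 ± 0.15 (adjusted p = 0.00521), Plk1 at 0.84 ± 0.16 (adjusted p = 0.00951), Nusap1 at 0.79 ± 0.16 (adjusted p = 0.012) and Racgap1 at 0.61 ± 0.12 (adjusted p = 0.0132). Of the 9, 4 were called whichever of the 11 libraries was left out, 4 were called in all without control CD41+ replicate 2, and 0 were called with the replicate block. DESeq2 called 15.

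In CD41+ cells, depletion was followed by 0 called genes among the 40 in the higher direction (0.0372% of all genes were called higher) and 0 in the lower (0.0669% of all genes). At an unadjusted p under 0.05, 22 were higher (6.19% of all genes) and 0 lower (814 of 13448 genes were). The 3 depleted libraries lay above both control libraries for 23 genes (13.2% of all genes). The median log2 fold change was 0.68, against -0.01 over all genes. DESeq2 called 8 higher, Kif20b, Kif15, Ckap2l, Mki67, Kif20a, Kif22, Ckap2 and Prc1, and limma voom called 0. Without depleted CD41+ replicate 1, 3 were called by edgeR: Mki67, Kif4 at 1.51 (adjusted p = 0.0382) and Kif15 at 1.44 (adjusted p = 0.0461). Over all genes, in either direction, DESeq2 called 238, limma voom 9 and edgeR 14, or 57 without that library. Kif20b had the smallest p of the 40 with all libraries, with 18.2 and 20.4 CPM in control and 57.8, 60.4 and 59.1 CPM in depleted CD41+ libraries (1.62 ± 0.38, adjusted p = 0.142). The sums of stem cell, megakaryocyte, and T and NK cell markers were lower in all 3 depleted than in both control CD41+ libraries. The megakaryocyte sum was between 976 and 1509 CPM in control and between 492 and 823 CPM in depleted CD41+ libraries. For T and NK cells these were 182 and 228, and 122 and 137 CPM. The other cell type sums overlapped. The part of these shifts in the response was not tested.

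Whether CD41- and CD41+ cells responded differently to depletion was tested by the difference of their responses, in which a negative value means a smaller rise in CD41+ cells. Of the 40 genes, 0 were called in the higher direction (0% of all genes were) and 0 in the lower (0% of all genes). At an unadjusted p under 0.05, 21 were lower (3.29% of all genes) and 0 higher (383 of 13448 genes were). The median was -0.98 (-0.54 with the replicate block), against -0.00 over all genes, and 34 of the 40 values were negative. The 3 with the smallest p were Nusap1 (-1.59 ± 0.32), Tacc3 (-1.37 ± 0.29) and Kif23 (-1.27 ± 0.27), each with an adjusted p of 0.304. DESeq2 called 8 in the lower direction, Nusap1, Kif22, Tacc3, Kif23, Racgap1, Cdca3, Ube2c and Prc1, and limma voom called 0. Over all genes, DESeq2 called 35 in either direction and edgeR 0. A difference between the responses was thus called by 1 of the 3 tools.

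Compared per length, as TPM (counts per base of annotated exon scaled to a common total), Cdc20 was the most abundant of the 40 in all 4 groups, with means of 134, 267, 397 and 407 TPM in control CD41-, control CD41+, depleted CD41- and depleted CD41+ cells. Ube2c followed with 85.9, 206, 267 and 315 TPM, and Plk1 had 59.8, 133, 195 and 227 TPM. Nusap1 had 45.7, 121, 199.6 and 188 TPM. Pttg1 stood at 54.3 TPM in control CD41- cells, close to Aurka (55.4) and Kif20a (55.1), and at 50.7 TPM in depleted CD41- cells, where those had 141 and 139 TPM. At the other end, Kif14, Kifc1, Cit, Ube2s and Nek2 had the lowest means in control CD41- cells, from 0.387 TPM (Kif14) to 1.90 TPM (Nek2).

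Across the 11 libraries the genes varied together. The median Pearson correlation of log2(CPM + 1) between pairs of the 40 genes was 0.77, and 0.29 after the mean of each group was removed, as a description over 11 libraries that share depth and group. Prc1 had the highest median correlation with the other genes (0.90), and Pttg1 (0.04), Kifc1 (0.25) and Cit (0.29) the lowest.

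Other genes of the same processes were read from 4 further lists. Among all genes tested, 1.58% were called higher and 1.04% lower in CD41+ cells of control mice. After depletion in CD41- cells these shares were 2.3% and 0.892%. Of 34 further spindle, midzone and cytokinesis genes, 7 were called higher in CD41+ cells of control mice and 0 lower (median 0.74), and depletion raised 19 and lowered 0 in CD41- cells (median 1.35).
Cdca8 (borealin) and Aurkb (Aurora kinase B), both of the chromosomal passenger complex, differed by 1.34 ± 0.17 (adjusted p = 0.0029) and 1.54 ± 0.25 (adjusted p = 0.00602) in control mice. Cdca8 had 55.6, 74.1 and 71.0 CPM in control CD41-, 164 and 175 in control CD41+ and between 210.5 and 264 CPM in depleted libraries. Gtse1, a microtubule-binding protein of G2 and mitosis, differed by 2.10 ± 0.29 (adjusted p = 0.00367) in control mice and by 2.28 ± 0.27 (adjusted p = 0.000627) after depletion in CD41- cells.
Of 15 augmin and gamma-tubulin ring genes, which nucleate microtubules in all cells, 0 were called in control mice (3 higher at an unadjusted p under 0.05, where 9.39% of all genes were, median 0.41), and depletion raised 2 in CD41- cells, Haus1 and Haus8 (median 0.55). Of 16 core and regulatory genes of the anaphase-promoting complex, 2 were called higher in control CD41+ cells (median 0.28) and 2 after depletion in CD41- cells (median 0.34), Fbxo5 and Anapc5 each time. Fbxo5, an inhibitor of the complex, differed by 1.35 ± 0.19 (adjusted p = 0.00367) and 1.00 ± 0.18 (adjusted p = 0.00619), and Anapc5, a core subunit, by 0.64 ± 0.15 (adjusted p = 0.042) and 0.72 ± 0.14 (adjusted p = 0.0111).
Of 14 transcription regulators of the B-MYB, MuvB and FOXM1 system, 1 was called in each comparison. Tfdp1, a partner of E2F factors, differed by 0.95 ± 0.23 (adjusted p = 0.0436) in control mice. Foxm1, named here after its value was seen, was raised by depletion in CD41- cells by 2.04 ± 0.37 (adjusted p = 0.00712), from 6.88, 5.24 and 7.30 CPM to 24.4, 29.5 and 26.3 CPM, and differed by 1.58 ± 0.40 (adjusted p = 0.0506) between control CD41+ and CD41- cells. None of the 96 list genes tested was called in depleted mice between CD41+ and CD41- cells. Of all genes, 0.0669% were called higher there and 0.126% lower.

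Counts of genes that overlap others are less certain, since no source used here states whether counting used the strand. Exons of 17 of the 40 genes overlap an exon of another gene, 15 of them on the opposite strand, among them Ube2c with Tnnc2, Nusap1 with Oip5, Tacc3 with Tmem129, Prc1 with Rccd1 and Cdc20 with Elovl1. Windows of 50 bases shared with another gene made up 16% of Ube2c, 10.6% of Cdc20, 10.4% of Plk1 and 9.77% of Prc1.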

How the data were processed

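Sorted stem cells of 11 libraries were sequenced by the authors after reverse transcription from poly-dT primers, template switching and PCR, per the labels' protocols. Per the submitters' processing notes, reads passed through cutadapt, STAR and HTSeq 0.6.1p1, and the builds named are GRCm38 and mm10. The deposited values are the authors' whole-number counts per gene. No source used here states the strand setting or the annotation release.

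Libraries were grouped by treatment and CD41 from their labels. Counts were filtered with filterByExpr (minimum count 10, minimum total 15), which kept 13448 genes with 99.7% of counts, normalised by TMM and fitted with the robust quasi-likelihood model of edgeR 4.0.16 in R 4.3.3, with 1 coefficient per group over all 11 libraries. The 6 comparisons were each adjusted by Benjamini-Hochberg, with calls at 0.05. SEs were derived by dividing the size of the log2 fold change by the root of its F statistic. The procedure was tested on simulated data. Coordinates, symbols and exon lengths are from GENCODE M21, promoters from RefSeq (GRCm38.p6). Alternatives tried were leaving out each library, DESeq2 1.42.0, limma voom (limma 3.58.1) with sample quality weights, RLE factors, scaling by library size alone, no filter, and a replicate block from title numbers.

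The 40 genes, their 6 roles and the lists of 108 further genes and 80 markers were chosen with earlier results of these data known. Genes with full statistics were, in each role, up to 3 called in control mice with the smallest p, in each other comparison up to 6 called with the smallest p, the 3 with the smallest p for the difference of responses, those whose value in control mice went against the sign of the median, and up to 3 called genes per further list. Other genes named were chosen after their values were seen. Python 3.11.15 with matplotlib 3.10.9 drew the figures.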

Additional observations from a re-analysis of the deposited data

Results flagged for a closer look

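The CD41 difference of 2 genes had opposite directions in control and depleted mice without overlap of libraries, an arrangement that 0.498% of all genes tested had. In depleted mice alone, the share of the 40 genes that were lower without overlap was below that of all genes, 9.32%. Ect2 was higher in both CD41+ libraries than in all CD41- libraries of control mice and lower in all CD41+ than in all CD41- libraries of depleted mice. The difference of the depletion responses was -1.50 ± 0.43 for Ect2, with an adjusted p of 0.458 in the edgeR quasi-likelihood test. Cdca3 had the same arrangement of libraries, with a difference of responses of -1.33 ± 0.30 (adjusted p = 0.345), and its CD41 difference was 1.20 in control and -0.13 ± 0.20 in depleted mice. With a replicate block of consecutive title numbers the value in depleted mice was 0.15, of the same sign as in control mice (1.15), while that of Ect2 was -0.63.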

How the results depend on the processing

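No value that was called in either fit changed sign under an alternative. Of 4000 values of the 40 genes under alternatives, 111 changed sign, 14 of them with the replicate block, all between values not called. Values printed above with an SE were among these. The control-mice difference of Kif20b became 0.27 with the block and 0.24 without control CD41- replicate 3. The CD41 difference of Cdca3 in depleted mice went from -0.13 to 0.15 with the block. For Pttg1, the depletion response of CD41- cells (-0.06) became 0.002 when replicate 1 of the control group was dropped. It became 0.07 when replicate 2 of the depleted group was dropped. Of the counts of genes per comparison and direction, 184 values under alternatives stayed within 1.5 times the count reported and 16 did not. Leaving out each library in turn gave between 2 and 15 genes called higher in CD41+ cells of control mice, between 4 and 12 in the average of both treatments, and between 0 and 3 after depletion in CD41+ cells. Calls over all genes, in either direction, moved as well. With both control CD41+ libraries kept, they were between 130 and 545 in control mice and between 401 and 788 in the average. In both comparisons they were fewest without control CD41+ replicate 2. After depletion in CD41+ cells they were at most 57. DESeq2 called 15 higher in the average, 8 higher after depletion in CD41+ cells and 8 lower in the difference of responses. Over all genes, in either direction, it called 1441, 238 and 35, where edgeR with all libraries called 724, 14 and 0. Without a filter on low counts, the counts among the 40 were 17, 8 and 12, and over all genes 1674, 317 and 178. There, 1 gene each was called lower in CD41+ cells of control mice (Mki67), in the average (Mki67) and in depleted mice (Ect2). In that unfiltered fit 10214 of 150588 tests over all genes gave a negative F statistic, so its p-values are doubtful. Depletion in CD41- cells gave between 25 and 35 genes under the other filters, scalings and tools and between 23 and 30 without single libraries. Over all genes, in either direction, these ranges were between 377 and 862 and between 169 and 560. There, edgeR with all libraries called 429. The labels pair no libraries. A replicate block of consecutive title numbers, with 3 residual degrees of freedom, called 0 genes higher in control mice and 0 in the average. Its medians were 0.88 in control mice, 0.58 in the average, 0.31 in depleted mice and -0.54 for the difference of responses. Over all genes it called 9 in control mice, 348 in the average and 23 in depleted mice. Deviations of libraries with consecutive numbers correlated at 0.0801 and 0.0977 in control and between 0.207 and 0.343 in depleted mice, where each library correlated best with that of its consecutive number. Comparisons of treatments could not be fitted with the block. The smallest library limits what can be seen in depleted CD41+ cells, where 3 counts in replicate 1 equal 3.08 CPM.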
